A study of Mus musculus with 48 samples.

Results

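The genes described here are protein-coding: Cpne9, Cpne5, Rspo4, Akr1cl, Atp4b, Slc15a5, Hephl1, Fam131c, Prr32 and Fras1. They are 10 of the 56748 genes in the deposited count files. They were chosen by their measured values, namely very large differences between room temperature and thermoneutral housing in brown adipose tissue, so these differences are given as a description with no test. The study sequenced RNA from brown adipose tissue (BAT), epididymal white adipose tissue (eWAT) and liver of male mice, 48 libraries in 12 groups of 4. The mice were hepAGT-/- animals (KO), in which angiotensinogen is deleted in hepatocytes, and hepAGT+/+ littermates (WT). For 12 weeks every animal ate a Western diet, which held 0.2% cholesterol and, as its fat, milk fat at 21%, so no group was free of the diet. Cages stood either at 20 to 22 °C, the room temperature groups (RT), or at 30 °C, the thermoneutral groups (TN). The age of the animals and the driver of the hepatocyte deletion are not given in the sources used here, and the labels call the 4 libraries of a group biological replicates.

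Brown fat burns fuel to make heat through Ucp1, the mitochondrial uncoupling protein, under sympathetic nerves that are active in mice kept below thermoneutrality. When mice are moved to thermoneutral housing, brown fat loses thermogenic gene expression, stores more lipid and comes to look more like white fat. The 10 genes are not classical thermogenic genes. They encode membrane-associated, secreted or extracellular proteins for the most part: copines bind phospholipid when calcium rises, R-spondins amplify Wnt signals at the cell surface, and Fras1 is a matrix protein of basement membranes.

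The sequences just upstream of the start sites are shown for the 5 genes in which a searched motif was found, 3 that were lower and 2 that were higher at thermoneutrality. RefSeq's promoter table (GRCm38.p6) matched 8 of the 10 genes, and windows of 250 bases before to 50 after the start were searched. The bases before the start are printed 5′ to 3′ on the gene's own strand, with each motif in capitals. Rspo4 (plus strand, chr2:151842677-151842926), Fam131c (plus strand, chr4:141367942-141368191) and Hephl1 (minus strand, chr9:15112109-15112358) were lower at thermoneutrality, while Akr1cl (minus strand, chr1:65032760-65033009) and Cpne9 (plus strand, chr6:113282057-113282306) were higher.
Rspo4: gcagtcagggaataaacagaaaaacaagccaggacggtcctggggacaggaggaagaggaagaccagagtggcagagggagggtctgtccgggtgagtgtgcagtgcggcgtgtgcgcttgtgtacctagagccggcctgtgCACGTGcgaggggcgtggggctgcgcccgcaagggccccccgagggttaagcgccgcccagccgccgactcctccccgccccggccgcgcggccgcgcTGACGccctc
Fam131c: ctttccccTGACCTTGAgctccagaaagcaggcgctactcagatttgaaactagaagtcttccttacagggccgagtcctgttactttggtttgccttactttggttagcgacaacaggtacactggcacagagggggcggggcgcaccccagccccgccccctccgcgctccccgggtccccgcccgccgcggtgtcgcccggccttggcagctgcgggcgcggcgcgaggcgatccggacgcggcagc
Hephl1: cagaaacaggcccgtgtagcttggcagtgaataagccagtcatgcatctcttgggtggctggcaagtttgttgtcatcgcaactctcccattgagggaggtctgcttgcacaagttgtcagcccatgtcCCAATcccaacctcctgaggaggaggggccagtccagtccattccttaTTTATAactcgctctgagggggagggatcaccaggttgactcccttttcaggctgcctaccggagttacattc
Akr1cl: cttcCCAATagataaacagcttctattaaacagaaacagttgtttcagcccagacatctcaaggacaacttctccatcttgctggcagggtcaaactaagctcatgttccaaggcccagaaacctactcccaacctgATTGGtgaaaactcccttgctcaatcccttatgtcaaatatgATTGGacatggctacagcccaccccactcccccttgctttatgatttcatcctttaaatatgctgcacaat
Cpne9: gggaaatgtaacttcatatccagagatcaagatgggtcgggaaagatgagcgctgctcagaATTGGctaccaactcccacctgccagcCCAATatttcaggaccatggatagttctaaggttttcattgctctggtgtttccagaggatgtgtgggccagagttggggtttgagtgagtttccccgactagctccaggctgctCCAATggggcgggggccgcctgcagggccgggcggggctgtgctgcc

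The motifs searched, on both strands, were the TATA box TATAAA, the cAMP response element TGACGTCA and its half-site TGACG, the nuclear receptor half-site AGGTCA, the estrogen-related receptor (ERR) element TCAAGGTCA, the E-box CACGTG, the CCAAT box and the TCF/LEF site CTTTGAT. The half-sites lie inside the longer elements, so those hits overlap. Fam131c held the ERR element on the reverse strand, starting 242 bases before the start, a run of letters present in 0.423% of the 32851 promoters in the table. Rspo4 held the half-site TGACG at 10 bases and the E-box at 108 bases before the start, found in 20.8% and 7.15% of promoters. Cpne9 and Akr1cl each held 3 CCAAT boxes and Hephl1 held 1, a motif in 37.4% of promoters, and Hephl1 also held a TATA box, present in 13.6%. None of the letters searched was in the windows of Cpne5, Slc15a5 or Prr32. No motif was shared by all fallers or all risers, and a match describes letters only. The windows of Cpne5, Rspo4 and Fam131c were rich in G and C (74.7%, 71.0% and 68.3%), that of Slc15a5 was poor (36.7%), and the median of all promoters was 52.7%.

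BAT libraries held 25.3 to 39.4 M counts (M, 1e6), those of eWAT 28.7 to 43.7 M and the livers 23.7 to 36.5 M. Agt, the gene deleted in hepatocytes, reached 276 to 504 CPM (counts scaled to a library total of 1e6) in the 8 WT livers and 125 to 207 CPM in the 8 KO livers, with no overlap. The tissues carried the markers of their labels, since the summed CPM of 7 brown adipocyte markers was 3025 to 18290 in BAT and 14.05 to 44.5 in eWAT. Within BAT that sum was 8576 to 18290 at RT and 3025 to 7193 at TN, while 6 white adipocyte markers summed to 112 to 497 at RT and 430 to 1156 at TN. Summed skeletal muscle markers ranged from 1.13 to 5891 CPM in BAT, with high and low libraries in every group. WT TN replicate 24 stood apart among the WT TN libraries of BAT, with the highest value of 7 of the 10 genes and a muscle marker sum of 4602 CPM. These markers move with housing temperature or between animals, and their part in the results below was not tested. In bulk tissue, fewer cells of a type and less RNA per cell cannot be told apart.

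Levels below are CPM after TMM scaling within each tissue, each from 4 libraries per group. In both genotypes 6 of the 10 genes were near or at 0 in thermoneutral brown fat, while the other 4 were low at room temperature and higher at thermoneutrality. In all 10 genes the TN and RT libraries did not overlap in either genotype, and the share of all genes without overlap is not given here. By another measure, 32.5% of 18032 tested genes passed edgeR's adjusted p under 0.05 in WT and 15.2% in KO. The members were selected on this contrast, so neither that separation nor a test of them is read as a result. The median log2 change of the members, -4.38 in WT and -4.52 in KO, reflects the choice of 6 fallers and 4 risers. It is not read as a fall of the set, and over all tested genes the median was 0.11 and 0.04.

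**Figure D1:**
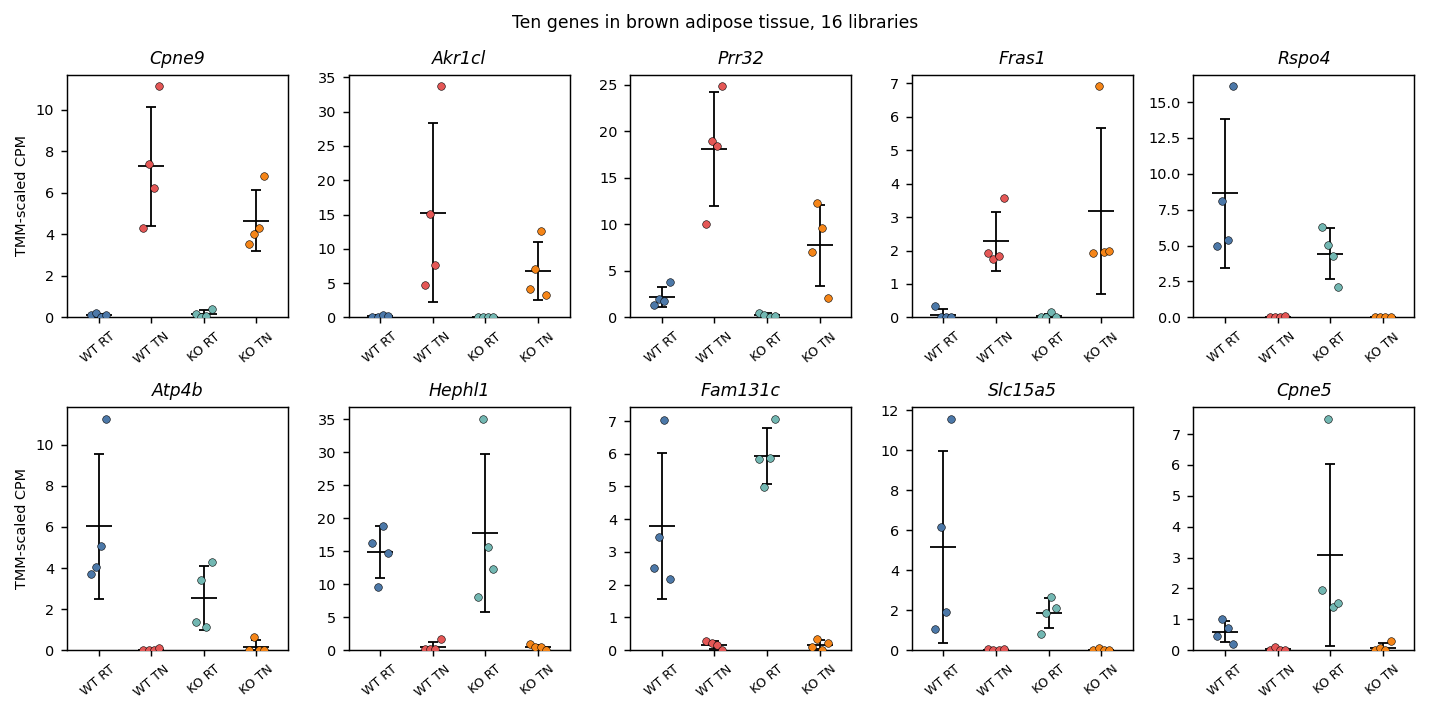
TMM-scaled CPM in the 16 brown fat libraries, 1 point per library, with the group mean (bar) and SD (whisker, stopped at 0 where it would go below). Cpne9, Akr1cl, Prr32 and Fras1 were high at TN, the other 6 were high at RT, and each panel has its own linear axis.

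Among the genes that were lower, Rspo4 was the one with the fewest counts at TN. It encodes a secreted R-spondin that binds Lgr receptors and keeps the ligases Znrf3 and Rnf43 from removing Wnt receptors. It lies on chromosome 2 (151842927 to 151874668, plus strand; all gene positions are GENCODE M21 on GRCm38). In WT brown fat it stood at 4.95, 5.40, 8.11 and 16.1 CPM at RT, and at TN it had 0 counts in 3 libraries and 4 counts in the other, 0.120 CPM. In KO it stood at 2.12, 4.26, 5.04 and 6.32 CPM at RT and had 0 counts in all 4 TN libraries. The WT mean at TN, 0.030 CPM, lies below the level of 3 counts per library, so no fold is given. The fitted WT log2 change went from -8.01 ± 0.87 (SE) to -11.1 without TN replicate 24, the library with counts. The KO difference is a bound, at least 50.9-fold lower at TN with a floor of 3 counts per library. All 8 RT libraries held Rspo4 and 7 of the 8 TN libraries held no count of it.

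Atp4b, the beta subunit of the gastric proton pump, lies on chromosome 8 (13386205 to 13396825, minus strand). It was at 3.69, 4.05, 5.08 and 11.3 CPM in WT at RT, against 0, 0, 0.0270 and 0.0899 CPM at TN. In KO it was at 1.14, 1.36, 3.41 and 4.28 CPM at RT, against 0, 0, 0 and 0.661 CPM at TN. The fourth value came from TN replicate 3, which alone held 24 counts. With it the fitted KO log2 change was -3.91 ± 1.15 (SE) and without it -9.29. Atp4a, the catalytic subunit that Atp4b serves in the stomach, had 0 counts in all 16 brown fat libraries, as did Atp12a, and the 7 stomach markers, Atp4a among them, were at 0 there.

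Hephl1, a membrane-bound multicopper oxidase of the ferroxidase family, lies on chromosome 9 (15051841 to 15112108, minus strand). It stood at 9.55, 14.8, 16.3 and 18.8 CPM in WT at RT and at 0.107, 0.108, 0.129 and 1.68 CPM at TN. In KO the RT libraries held 8.01, 12.2, 15.6 and 35.1 CPM and the TN libraries 0, 0.418, 0.441 and 0.922 CPM. Mean levels were 29.4-fold lower at TN in WT and 39.8-fold lower in KO. The highest WT TN value, from replicate 24, was 56 counts, and without that library the fitted WT log2 change went from -4.87 ± 1.01 (SE) to -6.96.

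Slc15a5, a member of the proton-coupled peptide transporter family, lies on chromosome 6 (137983586 to 138079916, minus strand). It was at 1.05, 1.92, 6.16 and 11.6 CPM in WT at RT and at no more than 0.0713 CPM in any WT TN library. In KO it was at 0.815, 1.87, 2.12 and 2.64 CPM at RT, and only 1 of 4 TN libraries held counts, at 0.110 CPM. The WT RT libraries spread over more than a factor of 10, the widest of the 6 genes. Both TN means lie below the level of 3 counts per library, so no fold is given. The fitted KO log2 change went from -5.89 ± 1.08 (SE) to -8.85 without TN replicate 3, the library with counts.

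Fam131c lies on chromosome 4 (141368220 to 141384175, plus strand). Its RT values were 2.19, 2.51, 3.45 and 7.04 CPM in WT and 4.97, 5.84, 5.87 and 7.07 CPM in KO. The TN libraries lay between 0 and 0.285 CPM in WT and between 0 and 0.331 CPM in KO. The means were 23.2-fold and 35.7-fold lower at TN.

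Cpne5, a copine, was the least abundant of the 6 in WT and lies on chromosome 17 (29155556 to 29238167, minus strand). It was at 0.209, 0.474, 0.720 and 1.01 CPM in WT at RT, and at TN only 1 library held counts, at 0.108 CPM. In KO it was at 1.39, 1.53, 1.94 and 7.49 CPM at RT and at 0, 0, 0.0551 and 0.290 CPM at TN. The highest value came from KO RT replicate 10, which was also the highest for Hephl1. The fitted log2 changes were -4.24 ± 1.21 (SE) in WT and -5.12 ± 1.14 in KO, and -7.23 without WT TN replicate 6 and -7.13 without KO TN replicate 5.

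Among the 4 genes that were higher at TN, Akr1cl had the largest fitted log2 change in KO, 10.7, which rests on RT libraries with 0 counts. It encodes an aldo-keto reductase, a family of enzymes that reduce aldehydes and ketones with NADPH, and lies on chromosome 1 (65012689 to 65032759, minus strand). In WT it was at 0, 0, 0.209 and 0.320 CPM at RT and at 4.71, 7.70, 15.0 and 33.7 CPM at TN. In KO it had 0 counts in all 4 RT libraries and 3.31, 4.10, 7.11 and 12.6 CPM at TN, at least 61.5-fold higher with a floor of 3 counts per library. The WT mean at RT, 0.132 CPM, lies below the level of 3 counts per library, so no WT fold is given. Without WT RT replicate 17 the fitted WT log2 change went from 6.93 ± 1.09 (SE) to 8.04. The highest TN library, WT replicate 24, held 1125 counts.

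Cpne9, another copine, lies on chromosome 6 (113282307 to 113305627, plus strand) and moved the opposite way to Cpne5. It was at 0, 0.102, 0.104 and 0.201 CPM in WT at RT, and at 4.31, 6.23, 7.41 and 11.2 CPM at TN. In KO it was at 0, 0.0734, 0.170 and 0.398 CPM at RT, and at 3.53, 4.02, 4.32 and 6.79 CPM at TN. The WT mean at RT, 0.102 CPM, lies below the count floor of that group, 0.156 CPM, so no WT fold is given. In KO the mean was 29.1-fold higher at TN. The fitted KO log2 change went from 4.82 ± 0.70 (SE) to 5.78 without RT replicate 19.

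Prr32, a short gene of 2 exons, lies on chromosome X (45090904 to 45092791, plus strand). It was the only riser with appreciable counts at RT in WT, at 1.29, 1.72, 2.01 and 3.75 CPM, and it reached 10.05, 18.4, 19.0 and 24.9 CPM at TN. In KO it was at 0, 0.133, 0.272 and 0.475 CPM at RT and at 2.12, 7.02, 9.56 and 12.3 CPM at TN. The mean was 8.25-fold higher at TN in WT and 35.2-fold higher in KO. Whether the temperature change differed between genotypes was not tested.

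Fras1, an extracellular matrix protein that joins epithelium to the tissue beneath it, lies on chromosome 5 (96373955 to 96784728, plus strand). At RT it had counts in 1 of 4 WT libraries (10 counts) and 1 of 4 KO libraries (4 counts). At TN it stood at 1.75, 1.83, 1.93 and 3.57 CPM in WT and at 1.92, 1.95, 1.97 and 6.92 CPM in KO. Leaving out the RT library with counts raised the fitted log2 change from 4.58 ± 1.08 (SE) to 9.17 in WT and from 6.35 ± 1.21 to 9.66 in KO.

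The members were not equally abundant, and per kilobase of exon the order differed between housing conditions. In WT at RT, mean CPM per exon kilobase was 3.99 for Atp4b, 3.64 for Rspo4, 2.82 for Hephl1, 2.65 for Fam131c, 1.98 for Prr32 and 1.68 for Slc15a5. From Atp4b to Prr32 each gene's SD, 0.742 to 2.35, was larger than its gap to the next lower gene. At TN in WT it was 16.3 for Prr32, 3.63 for Akr1cl, 0.924 for Cpne9 and 0.128 for Fras1, whose exons span 17709 bases. By fitted log2 change Prr32 ranked 426 among the increases in WT, while in KO Rspo4 ranked first among decreases and Akr1cl first among increases. In KO, Rspo4 had no counts at TN and Akr1cl none at RT, so those KO ranks rest on fits to empty groups. Among named genes averaging 1 CPM or more, the largest WT increase was that of the water channel Aqp4, with a log2 change of 9.09. In WT brown fat, summed skeletal muscle markers had a median of 52.6 CPM at RT (1.77 to 580) and 1930 at TN (6.10 to 4602). The part of muscle in the WT ranks was not tested.

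Outside brown fat the 10 genes fell into different patterns. Rspo4 had 0 counts in all 16 eWAT and all 16 liver libraries, where a floor of 3 counts corresponds to 0.0684 to 0.104 CPM in eWAT and 0.0828 to 0.138 CPM in liver. Atp4b had counts in 1 eWAT library, 4 in all, and in no liver library. Cpne9, Akr1cl and Prr32 had 0 counts in all 16 livers, while Cpne5 and Hephl1 had counts in 1 liver each, 8 and 2 in number. Of the 10 genes, 7 were thus at or near 0 in liver.

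The other 3 were expressed in every liver library. Slc15a5 stood at 5.26 to 20.2 CPM in liver, and 6 of the 8 RT brown fat libraries were below the lowest liver. It was at only 0.0504 to 0.842 CPM in eWAT. Fam131c was at 1.38 to 9.38 CPM in liver and had counts in only 2 of 16 eWAT libraries, 1 of them with 44 counts. Fras1 was at 0.866 to 5.84 CPM in liver and 0.391 to 18.2 CPM in eWAT.

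In eWAT the highest member was Prr32, at 16.9 to 57.0 CPM, and 14 of the 16 libraries were above its highest brown fat value, 24.9 CPM. Hephl1 was at 0.506 to 20.7 CPM, Akr1cl at 0.292 to 6.66 CPM and Cpne5 at 0 to 2.93 CPM there. Cpne9 reached 0.839 CPM in 1 eWAT library of WT mice at TN and was at or below 0.292 CPM in the others.

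**Figure D2:**
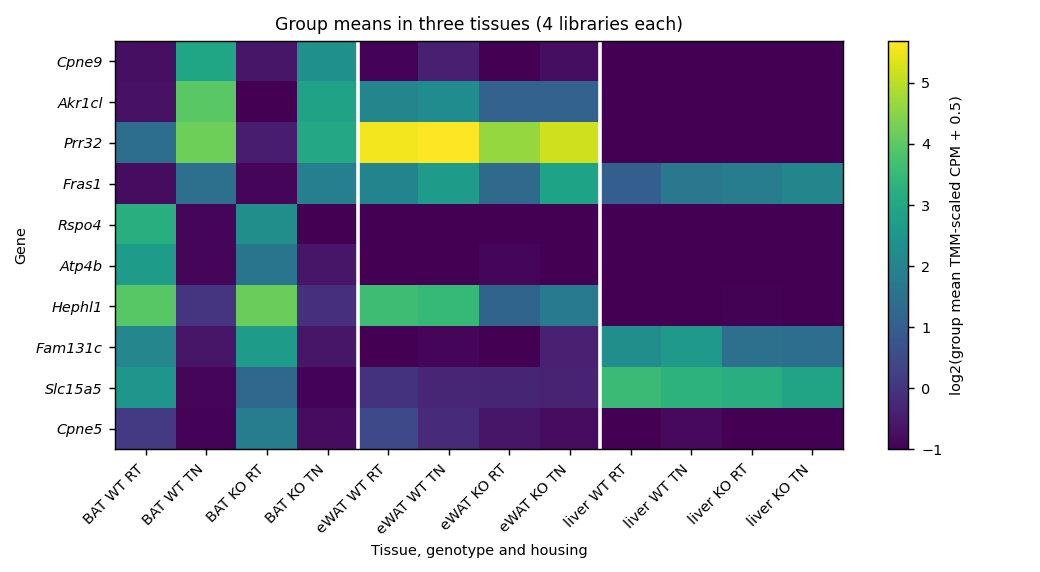
Colour shows log2 of the group mean TMM-scaled CPM plus 0.5 for each gene (rows) in the 12 groups (columns, 4 libraries each), with white lines between tissues. Rspo4 and Atp4b are above background in brown fat alone among these tissues, Prr32 is highest in eWAT, and Slc15a5 and Fam131c have a liver level.

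Against eWAT at the same temperature, averaged over genotypes, the brown fat libraries that chose the members form 1 side of the comparison, so it is a description. At RT all 10 members passed edgeR's adjusted p under 0.05, 7 higher and 3 lower in brown fat, where 58.0% of 20488 genes passed. Cpne5 was among the 7 through KO, at 18.5-fold the eWAT mean, while its WT mean was 0.602 CPM in BAT and 0.900 in eWAT. Its call was lost without BAT KO RT replicate 10, which stood at 7.49 CPM (edgeR adjusted p = 0.09035). Cpne9, also among the 7, had at most 12 counts in any RT brown fat library and at most 3 in any RT eWAT library. Cpne9 entered the fit through the TN brown fat libraries. At TN 6 passed, 3 higher and 3 lower, where 51.3% of genes did. Rspo4, with 4 counts in all at TN, entered that fit only through the RT brown fat libraries and could not be compared. Akr1cl went from a log2 difference of -6.53 ± 0.95 (SE) at RT to 2.34 ± 0.57 at TN. Hephl1 went the opposite way, from 2.26 ± 0.54 to -3.14 ± 0.59. At RT its BAT mean was 1.26-fold that of eWAT in WT, with overlap, and 10.4-fold in KO, without overlap, and that contrast between genotypes was not tested. Slc15a5 went from 3.42 ± 0.64 to -2.83 ± 0.76. Such shifts between temperatures contain the brown fat change on which the members were chosen, so they are not a separate result. Prr32 was lower in brown fat at both temperatures, by -5.18 ± 0.35 and -1.46 ± 0.28. Atp4b was among the 6 at TN only with KO TN replicate 3, since without it the log2 difference was 1.67 and the adjusted p was 1.0.

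Housing temperature was then compared in the other tissues, which the choice of members did not use. In eWAT 6 of the 10 members passed the filter on low counts (Cpne5, Akr1cl, Slc15a5, Hephl1, Prr32 and Fras1). By edgeR's quasi-likelihood test none of the 6 passed in WT, where 0.0% of 18933 genes did, and none had an unadjusted p under 0.05, although 1324 genes of the table had one and DESeq2 called 110. None passed in KO, where 1.74% of genes passed, and Prr32 alone had an unadjusted p under 0.05. Prr32 in KO eWAT was at 16.9, 23.7, 27.7 and 28.9 CPM at RT and at 29.7, 29.8, 42.7 and 43.9 CPM at TN, without overlap. Its log2 change was 0.59 ± 0.16 (SE, edgeR adjusted p = 0.0709), and DESeq2 gave an adjusted p of 0.0234. In the same KO libraries white adipocyte markers summed to 2988 to 3686 CPM at RT and 4866 to 6686 at TN, and macrophage markers to 60.8 to 81.3 and 88.0 to 131.0 CPM. Their part in the Prr32 values was not tested.

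In liver only Slc15a5, Fam131c and Fras1 passed the filter. None of the 3 passed the temperature test by edgeR in WT or KO, where 0.0227% and 0.114% of 17594 genes did, and none had an unadjusted p under 0.05 or was called by DESeq2. Slc15a5 averaged 11.4 ± 5.98 CPM (SD, n = 4) at RT and 9.60 ± 1.74 at TN in WT liver. In KO liver it averaged 8.88 ± 1.33 CPM at RT and 7.05 ± 1.75 at TN.

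Hepatocyte angiotensinogen deletion was compared with littermates at each temperature in each tissue. In BAT none of the 10 members passed by edgeR at RT, where 0.0887% of 18032 genes did, or at TN, where 0.0% did. At TN the 6 genes that were near 0 in both genotypes entered the fit through their RT libraries, and a genotype difference in them was not detectable at this depth. At RT the same held for Cpne9, Akr1cl and Fras1, which were near 0 in both genotypes and entered through their TN libraries. At an unadjusted p under 0.05 there were 2 members at RT (Cpne5 and Prr32) and 1 at TN (Prr32), and over all genes 3507 and 945. DESeq2 called 1 member at RT (Prr32) and none at TN, and 927 and 20 genes. Prr32 at RT ranged over 1.29 to 3.75 CPM in WT and 0 to 0.475 CPM in KO, without overlap. White adipocyte markers in the same libraries summed to 235.1 to 497.1 CPM in WT and 111.6 to 156.2 in KO, and their part in the difference was not tested. The Prr32 log2 difference was -3.27 ± 0.70 (SE), with an adjusted p of 0.0766 by edgeR and 1.83e-05 by DESeq2. Over 13 alternatives that adjusted p ran up to 0.259, and 2 passed.

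In eWAT at RT 2 of the 6 tested members were lower in KO, Hephl1 and Prr32, where 4.34% of genes passed by edgeR. Prr32 was at 41.9, 44.8, 45.9 and 54.6 CPM in WT and at 16.9, 23.7, 27.7 and 28.9 CPM in KO. The groups did not overlap, and the log2 difference was -0.95 ± 0.17 (SE, edgeR adjusted p = 0.00467). It passed in all 13 alternatives, with adjusted p from 1.3e-05 to 0.0200.

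Hephl1 in the same libraries was at 6.58, 9.10, 10.8 and 20.7 CPM in WT and at 0.922, 0.922, 2.04 and 2.96 CPM in KO. Every WT library was above every KO library, and the WT mean was 6.90-fold that of KO. The log2 difference was -2.79 ± 0.60 (SE, edgeR adjusted p = 0.0183). The call was lost on leaving out WT replicate 18 (adjusted p = 0.0590), KO replicate 10 (0.0519) or KO replicate 19 (0.0674). WT replicate 18 also carried the highest epididymis markers, summing to 866 CPM against 9.88 or less in the other 3, and without it the log2 difference of Hephl1 was -2.34.

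Summed white adipocyte markers were lower in KO eWAT at RT as well, at 6183 to 8102 CPM in WT and 2988 to 3686 in KO. Lep, Npr3, Mest and Wdnm1-like had lower means in KO, while the other markers of the sum, Nnat and Ccl21a, had higher means. Lep averaged 3541 CPM in WT and 1184 in KO, and Nnat 657.7 and 734.1. The 5 macrophage markers summed to 89.5 to 220.1 CPM in WT and 60.8 to 81.3 CPM in KO. The part of these markers in the 2 differences was not tested.

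At TN neither gene passed in eWAT, where 0.586% of genes did. Hephl1 was at 8.70, 9.16, 10.1 and 14.9 CPM in WT and at 0.506, 1.95, 3.70 and 5.52 CPM in KO, still without overlap. Its log2 difference was -1.87 ± 0.57 (SE, edgeR adjusted p = 0.146), and DESeq2 called it with an adjusted p of 0.0115. Prr32 was at 47.6 to 57.0 CPM in WT and 29.7 to 43.9 CPM in KO, a log2 difference of -0.48 ± 0.16 with an edgeR adjusted p of 0.179. Both genes had an unadjusted p under 0.05, and the difference between the 2 temperatures was not tested.

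**Figure D3:**
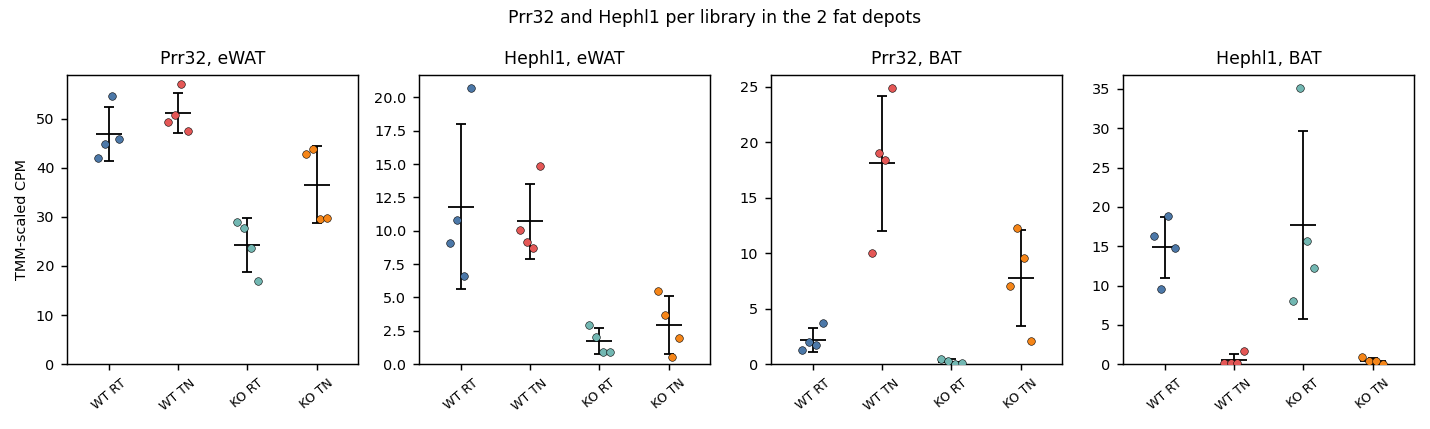
TMM-scaled CPM of Prr32 and Hephl1 in each library of eWAT and brown fat, 1 gene and tissue per panel, with group mean and SD, each panel on its own linear axis. In eWAT the KO libraries lie below the WT libraries at both temperatures for both genes, while in brown fat the Hephl1 libraries of both genotypes are high at RT and low at TN.

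In liver none of the 3 tested members passed for genotype by edgeR, where 0.0853% of genes passed at RT and 3.18% at TN. At an unadjusted p under 0.05 there were 2 members at RT (Fam131c and Fras1) and 1 at TN (Fam131c), over all genes 1799 and 3099. DESeq2 called no member at RT and 206 genes. Fam131c at TN was at 3.59, 4.45, 4.50 and 9.38 CPM in WT and at 1.38, 2.05, 2.22 and 2.94 CPM in KO, without overlap. The log2 difference was -1.35 ± 0.39 (SE, edgeR adjusted p = 0.0589). DESeq2 called it (adjusted p = 0.0165), and without WT replicate 7 the edgeR value was 0.232. At RT the difference was -0.97 ± 0.39 (adjusted p = 0.367) and the groups overlapped.

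Relatives of the members in brown fat were taken from lists of family genes, and each count is to be read against the 32.5% (WT) and 15.2% (KO) of all genes that passed in that contrast. Cpne9 and Cpne5 moved in opposite directions, and of the other 4 copines tested Cpne2 and Cpne8 rose in WT and none passed in KO. Cpne2 went from 1.80 ± 0.85 CPM (SD, n = 4) at RT to 6.92 ± 1.49 at TN in WT, a log2 change of 1.94 (edgeR adjusted p = 0.000494).

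Around Rspo4, none of the 6 other R-spondins, receptors and ligases tested passed in either genotype. Lgr6, a receptor for R-spondins, stood at 129 ± 21.8 CPM (SD, n = 4) in WT brown fat at RT and 80.4 ± 47.2 at TN, and its mean in WT eWAT at RT was 0.0815 CPM. Lgr4, the more widely expressed receptor, was at 18.7 ± 2.15 and 21.6 ± 2.52 CPM in the same 2 brown fat groups. Of 5 Wnt target genes tested, 3 rose at TN in WT (Nkd1, Tcf7 and Apcdd1) and 1 in KO (Apcdd1), the latter near the share over all genes. Apcdd1, an inhibitor of Wnt signalling, went from 3.84 ± 2.09 to 33.1 ± 14.0 CPM in WT and from 2.07 ± 1.72 to 32.2 ± 14.1 CPM in KO (edgeR adjusted p = 0.00201 and 0.0013). Axin2, the most used readout of the pathway, was at 25.3 ± 7.49 CPM at RT and 25.25 ± 16.9 at TN in WT.

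Hephl1 had a relative that moved the other way. Of 9 other iron-handling genes tested, Heph, which encodes the ferroxidase hephaestin, rose in both genotypes, from 4.29 ± 2.11 to 22.0 ± 2.68 CPM (SD, n = 4) in WT and from 2.96 ± 1.16 to 20.6 ± 3.04 CPM in KO. The log2 changes were 2.36 (edgeR adjusted p = 6.12e-05) and 2.80 (2.94e-05). Fth1, the ferritin heavy chain, fell in both genotypes, from 1862 ± 183.8 to 1112 ± 161.3 CPM in WT. The iron exporter Slc40a1 rose in KO only by this test, and the difference between genotypes was not tested. Of the 9 genes, 1 rose and 1 fell in WT, where 32.5% of all genes passed. In KO 2 rose and 1 fell, where 15.2% passed.

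None of 14 other aldo-keto reductases rose with Akr1cl, while 5 fell in WT and 3 in KO, counts near the shares over all genes. Akr1b10 fell from 106 ± 19.3 to 40.6 ± 7.08 CPM in WT.

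Of 3 other SLC15 transporters, 1 rose in each genotype, Slc15a3 in WT and Slc15a4 in KO, against the direction of Slc15a5. The WT count is near the share over all genes. Of 3 tested partners of Fras1, Grip1 and Npnt fell in WT and Npnt in KO, opposite to Fras1. Npnt, which encodes the matrix protein nephronectin, went from 2.55 ± 1.26 to 0.735 ± 0.418 CPM in WT. Frem2, a close partner of Fras1 in basement membranes, was below 0.1 CPM in every brown fat group mean, and Frem3 had 0 counts in BAT. Neither of the other 2 Fam131 genes passed.

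Among 8 reference genes of brown fat, 5 fell in both genotypes (Ucp1, Elovl3, Cidea, Cox8b and Cox7a1) and Lep rose. Elovl3, an elongase of very long fatty acids, fell from 269.6 ± 72.1 to 1.81 ± 1.82 CPM in WT. Dio2 and Ppargc1a did not pass.

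**Figure D4:**
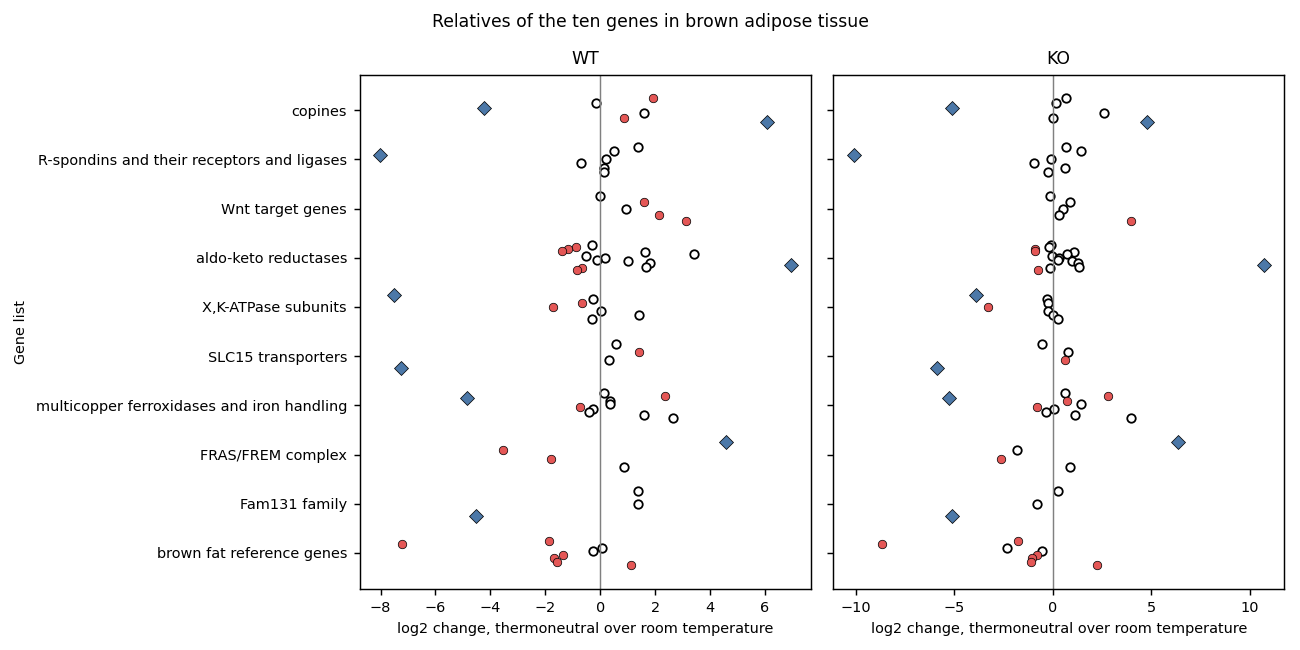
Log2 change from RT to TN in brown fat (horizontal axis) for the tested genes of each list (vertical axis), in WT (left) and KO (right, on its own scale). Blue diamonds are the members, red circles passed edgeR's adjusted p under 0.05 and white circles did not, and every relative but Elovl3 lies within 4 log2 units of 0.

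Within groups the members were only loosely tied to each other. Deviations of log2(CPM + 0.5) from the group mean over the 16 brown fat libraries gave Pearson r from -0.50 to 0.63 over 45 pairs, with a median of 0.05. The closest pair was Akr1cl and Prr32, at r = 0.63, and 0.55 to 0.67 on leaving out each library. Rspo4 and Slc15a5 gave 0.54, but between 0.09 and 0.78 on leaving out each library. Rspo4 and Fam131c gave the lowest value, -0.50, and -0.73 to -0.28 on leaving out each library. These values share library scaling and hold many libraries near 0, where deviations are small. Among WT TN libraries replicate 24 was the highest for all 4 risers, Cpne9, Akr1cl, Prr32 and Fras1.

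**Figure D5:**
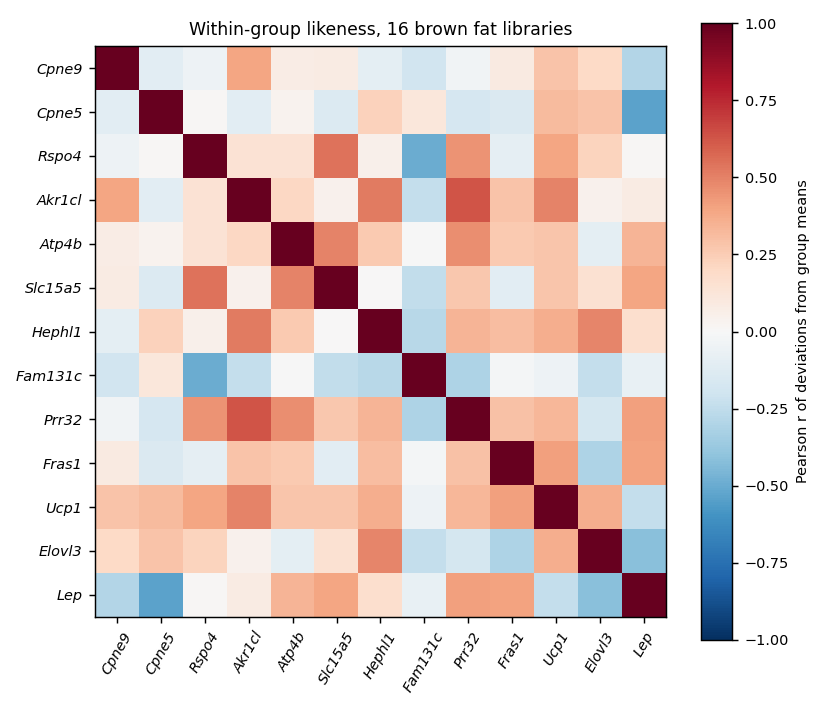
Pearson r of deviations from group means over the 16 brown fat libraries between the 10 genes and Ucp1, Elovl3 and Lep. Among the members the highest value is that of Akr1cl with Prr32 (0.63) and the lowest that of Rspo4 with Fam131c (-0.50).

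Over the 12 group means of log2(CPM + 0.5), the genes most like each member were named by Pearson r among 14461 genes, a description in which tissue differences weigh heavily. Rspo4 and Atp4b shared the same nearest gene, Ube2ql1, at r = 0.98 each, which stood at 12.7 CPM in WT brown fat at RT, 0.488 at TN and 0.0555 in WT eWAT at RT. Cpne9 was most like Mgat5b (r = 0.997) and Magel2. Akr1cl was most like Tnc, which encodes the matrix protein tenascin C (r = 0.97), and Col28a1, a collagen (r = 0.96). Tnc stood at 0.414 CPM in WT brown fat at RT, 22.6 at TN and 7.58 in WT eWAT at RT.

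Prr32 was most like Il1rl1 (r = 0.99), and Slc15a5 most like Ugp2 and Pex7 (r = 0.99 each). Hephl1 was most like Tpi1 and Tmed5, Fam131c most like Acsf2 and Mapre3, Cpne5 most like Bsg and Noct, and Fras1 most like Arl13b and Nt5dc2. Poldip2 and Mrpl50 were the second genes for Atp4b and Rspo4.

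Genes next to the members on the chromosome were compared in brown fat, where 15 of 20 nearest neighbours were tested. In WT 10 of the 15 passed, where 32.5% of all genes did, 7 in the direction of their member and 3 in the other. In KO 6 passed, where 15.2% of all genes did, 4 in the member's direction and 2 in the other, and neither count was tested. Mtmr14, 915 bases from Cpne9, rose by a log2 change of 0.68 (edgeR adjusted p = 0.0484) in WT and 1.30 (0.00257) in KO. Fras1 lies between Mrpl1, which fell by 1.10 and 0.67 on the log2 scale in WT and KO, and Anxa3, which rose by 1.35 and 0.80. Genes annotated on the opposite strand within the members were at or below 0.0841 CPM in brown fat group means, apart from Gm43935 in Cpne9, at 0.834 to 1.29 CPM. The strand setting of the counting is not given in the sources used here, so reads of Cpne9 and Gm43935 cannot be told apart.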

How the data were processed

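The authors deposited 1 file of raw read counts per gene for each of the 48 libraries, of BAT, eWAT and liver, in 12 groups of 4. The submitters' processing notes name fastp, STAR 2.6.1d, featureCounts 1.5.0-p3 and the GRCm38 (mm10) build, with settings and strand not given in the sources used here. Counts from 1 to 20 were even in 75.46% of cases and those of 1000 or more in 50.01%, so low counts may not be single independent fragments, and floors cover counting error only. Symbols from the reference table matched 52073 of 56748 genes (91.76%).

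Each tissue's 16 libraries were fitted together with edgeR 4.0.16 in R 4.3.3 (two-sided quasi-likelihood test after TMM normalization, genes kept by filterByExpr at min.count 10), and BAT and eWAT together for the tissue comparison. P-values were adjusted over all genes tested by Benjamini-Hochberg and called under 0.05. CPM used TMM factors, correlations used a pseudocount of 0.5, and where a group was at 0 a floor of 3 counts per library gave the bound. The code was tested on simulated data, where smaller changes were recovered less often.

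Named genes were the 10 members, the 2 genes most like each over group means, the nearest gene on either side, and family lists. Members and lists were chosen with earlier results of these data known. Labels call replicates biological, but without a stated animal per number p-values measure the spread between these libraries. Alternatives were RLE scaling, other filters, DESeq2 1.42.0, only the libraries compared, a replicate block and leaving out each library. Some genes that the rule names are not reported here.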

Additional observations from a re-analysis of the deposited data

Results flagged for a closer look

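A gene was examined in a group of 4 libraries where every library held at least 3 counts of it. Of 53 such sets, 7 held 1 library far above the other 3. The rule flags about 1 in 20 sets if values are normally distributed, which was not tested for these CPM. In brown fat, Cpne5 was at 7.49 CPM in KO RT replicate 10, against 1.39 to 1.94 CPM in the others. Hephl1 was at 1.679 CPM in WT TN replicate 24, against 0.107 to 0.129 CPM. Fras1 was at 3.568 CPM in that same library, against 1.75 to 1.93 CPM, and at 6.918 CPM in KO TN replicate 3, against 1.92 to 1.97 CPM. In eWAT, Cpne5 was at 2.93 CPM in WT RT replicate 18, against 0.120 to 0.389 CPM, and that library also held epididymis markers summing to 866 CPM. Fras1 was at 18.24 CPM in eWAT WT TN replicate 23, against 0.391 to 2.67 CPM. In liver, Fam131c was at 9.381 CPM in WT TN replicate 7, against 3.59 to 4.50 CPM. No cause was tested for any of them.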

How the results depend on the processing

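Member levels stayed within 1 SD in 498 of 498 rescaled or leave-one-out values. Leaving out 1 of 4 libraries cannot move a mean by 1 SD, so only the rescaled values could have come out otherwise. The members' changes that the text describes were recomputed under the alternatives. For temperature in BAT a value counted as kept if its direction held and it moved by less than 1 SE, with no threshold used. In the other comparisons it counted as kept if its direction and side of the threshold held. By these rules 726 values were kept and 10 for temperature in BAT moved. In the other comparisons 11 newly passed, 8 no longer passed and 1 reversed. The reversal among those was Fras1 in BAT against eWAT at TN, with log2 differences from -1.19 to 0.0257 on leaving out each library, above 0 without eWAT WT TN replicate 23. Over all members and comparisons outside BAT temperature, given in the text or not, 25 of the 58 changes that were not called changed sign under at least 1 alternative, and 0 of the 18 that were called did. The cause of these shifts was not tested.

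Counts of genes called moved more. For genotype in BAT at RT (16 genes) RLE scaling gave 0, no filter 47, at least 1 CPM in 4 libraries 0, DESeq2 927, only the libraries compared 0, and leaving out each library 0 to 1979, the highest without WT RT replicate 12. Members called there were 1 by DESeq2 and 0 to 1 on leaving out each library. At TN DESeq2 gave 20. For eWAT temperature in WT no filter gave 1, DESeq2 110 and leaving out each library 0 to 13. In KO (330) these were 1206 by DESeq2, 0 with only the libraries compared and 0 to 642, with 1 member by DESeq2 and 0 to 1. For eWAT genotype at RT (821) DESeq2 gave 1559 and leaving out each library 287 to 830, with 1 to 2 members. At TN (111) DESeq2 gave 691, only the libraries compared 0 and leaving out each library 1 to 238, with 1 member by DESeq2. For liver temperature in WT (4) no filter gave 10, DESeq2 86, only the libraries compared 8 and leaving out each library 2 to 23. In KO (20) these were 77, 359, 13 and 0 to 153. For liver genotype at RT (15) no filter gave 25, at least 1 CPM 9, DESeq2 206 and leaving out each library 4 to 19. At TN (560) DESeq2 gave 1165 and leaving out each library 178 to 497, with 1 member by DESeq2 and 1 with only the libraries compared.

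With the replicate number as a block, 9870 genes at RT and 8409 at TN were called between BAT and eWAT, against 11878 and 10520 without it. Over 11 same-numbered pairs the correlation of deviations ran from -0.327 to 0.156 and was over 0.1 in 1. Over 53 pairs with other numbers it ran from -0.273 to 0.296 and was over 0.1 in 13. Such correlations between different tissues cannot show whether a number names 1 animal. With the block Fam131c at TN was called, and Atp4b at TN and Cpne5 at RT were not.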

Other observations

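Of the 274 nonzero counts of the 10 genes, which are of every size, 63.87% were even. The share over all genes in the 48 libraries, 75.46%, covers only counts from 1 to 20, so these shares are not comparable. Akr1cl and Hephl1, which moved in opposite directions with housing temperature, gave a within-group Pearson r of 0.52 over the 16 brown fat libraries, with 0.17 as the lowest value on leaving out each library. Cpne5 and Lep gave -0.53.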
